A study of Ovis aries with 10 samples.

Results

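GBP6 (ENSOARG00020007278) and IFI6 are 2 interferon-induced genes among the 80 genes in the comparison table that the authors deposited for fetal sheep blood cells. They were selected on the difference between Day 5 and Day 1 in the same libraries that are described here, since that table holds genes which passed the authors' thresholds for this difference. Every value of this contrast is therefore given as a description, without a test. Both genes have pooled means for each day. GBP6 is 1 of the 30620 genes with a value in every library, and IFI6 was not analysed there because no source used here pairs its symbol with an Ensembl identifier.

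Peripheral blood mononuclear cells (PBMCs), mainly lymphocytes and monocytes, were taken from 5 catheterized singleton fetuses of Columbia-Rambouillet crossbred ewes. On Day 1, at 123 ± 2 days of gestation, blood was drawn before any lipopolysaccharide (LPS, here from Escherichia coli O55:B5) had been given. On Day 5, at 127 ± 2 days, the same fetuses were sampled ahead of that day's bolus, having received 3 intravenous boluses of 0.3 µg (Day 1), 1.5 µg (Day 3) and 3 µg (Day 4). The 10 libraries (n = 5 per day) hold no fetus without LPS on Day 5, so LPS, the advance of gestation and the time since surgery cannot be told apart.

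Interferons are cytokines that bind receptors on most nucleated cells and, through JAK kinases and STAT factors, switch on a large set of interferon-stimulated genes. LPS is sensed by TLR4, whose adaptor TICAM1 leads to interferon beta, while its MYD88 branch leads to NF-kappaB and inflammatory cytokines. GBP6 encodes a guanylate-binding protein, a member of a family of interferon-inducible GTPases that act against intracellular microbes, and IFI6 encodes a small membrane protein induced by interferon alpha.

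GBP6 was higher on Day 5 in each of the 5 fetuses. Values are regularized-log (rlog) values, log2 counts that are scaled to library size and drawn toward each gene's average where reads are few. On Day 1 the rlog value of GBP6 was 8.37, 8.88, 8.31, 8.58 and 9.0 for fetuses 1 to 5. On Day 5 it was 8.76, 9.46, 9.61, 10.45 and 10.87 in the same order. The days overlapped through fetus 1, whose Day 5 library lay below the Day 1 libraries of fetuses 2 and 5, while the other 4 Day 5 libraries lay above every Day 1 library. The Day 1 mean was 8.63 ± 0.31 (SD, n = 5), and the Day 5 mean was 9.83 ± 0.84 (SD, n = 5). They differed by 1.20 on the log2 scale, or 2.3-fold. In bulk RNA, a larger share of cells that express the gene and more RNA per cell cannot be told apart.

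**Figure D1:**
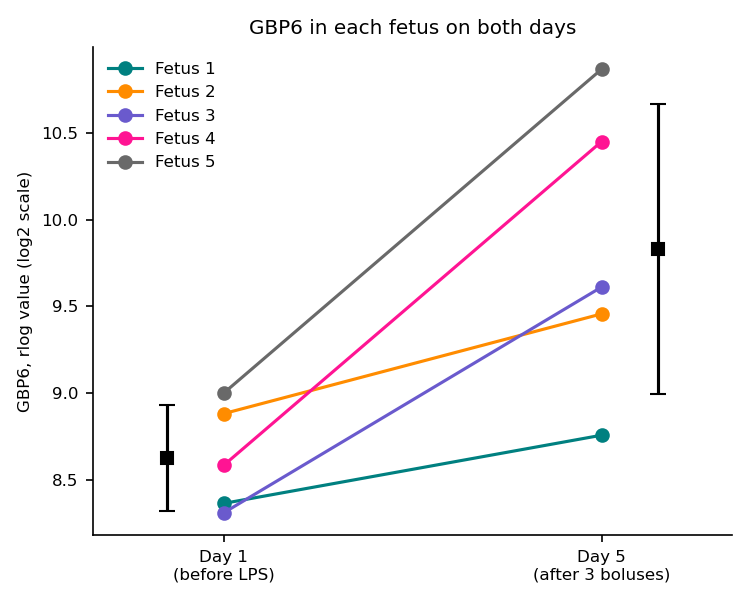
GBP6 rlog values (log2 scale, y axis) on Day 1 and Day 5, with a line for each fetus and black squares with bars for the mean and SD of each day (n = 5). All 5 lines go up, and the Day 5 values spread from 8.76 to 10.87 while the Day 1 values lie between 8.31 and 9.0.

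The size of the difference varied among fetuses. For fetuses 1 to 5 it was 0.39, 0.57, 1.30, 1.86 and 1.87, with a median of 1.30 and an SD of 0.70. The differences were thus smallest in fetuses 1 and 2 and greatest in fetuses 4 and 5. Fetus 5 had the highest GBP6 on both days, whereas fetus 4 ranked 3 of 5 on Day 1 and 2 of 5 on Day 5. On a linear scale (2 to the power of the rlog value), the Day 5 values were 433, 703, 782, 1398 and 1867 for fetuses 1 to 5, and fetuses 4 and 5 together held 63.0% of their sum. The linear mean was 403 ± 86.1 (SD, n = 5) for Day 1, against 1037 ± 583 (SD, n = 5) for Day 5, a ratio of 2.57.

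The spread of GBP6 between fetuses was wider on Day 5. Its SD on Day 5 was 2.73 times that on Day 1, where the median of this ratio was 1.05 over the 10023 genes with a mean rlog value at or above the median. On Day 1 the SD of GBP6 was greater than that of 65.3% of these genes, and on Day 5 greater than that of 98.4%. The ratio itself was above that of 95.0% of them. Since the gene was chosen for a difference between the days, these positions are a description of the gene.

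Among all genes, GBP6 ranked 22 of 20046 by its mean difference, Day 5 minus Day 1. It was among the 707 genes that were higher on Day 5 in every fetus (3.53% of the genes tested), a number that was 1092 after quantile normalization and 1459 with each library centred on its median. It was also among the 124 that in addition had a fold change over 1.5 (0.619%). It was not among the 94 genes whose Day 5 libraries all lay above their Day 1 libraries (0.469%). Nothing is read from these counts for GBP6, because its selection used the same contrast. With limma and Benjamini-Hochberg adjustment, 4 genes (0.0200%) passed an adjusted p under 0.05 with a fold change over 1.5, all of them higher on Day 5. GBP6 was not among the 4, and nothing is read from this for the same reason. The limma standard error of the GBP6 difference was 0.33. With each fetus as a replicate block (a paired fit) the standard error was 0.22 and the number of genes passing was 27, again without GBP6. The number of genes passing was 6 without fetus 1 and 0 without fetus 2, 3, 4 or 5. In these last 4 fits limma gave between 785 and 1008 genes at an unadjusted p under 0.05. By chance a share of 0.05 of the 20046 genes is expected there, and these counts lie near or below it.

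**Figure D2:**
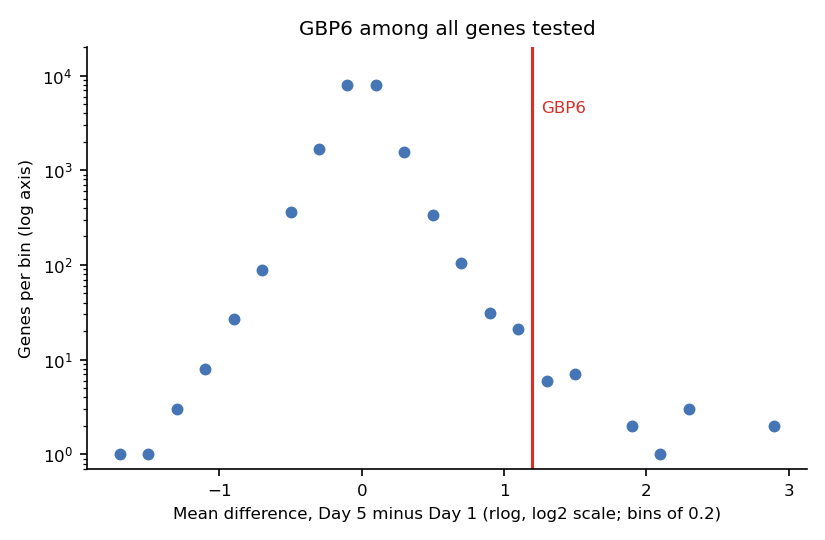
Mean difference in rlog value, Day 5 minus Day 1 (x axis, log2 scale, bins of 0.2), against the number of genes in each bin (y axis, log axis) for the 20046 genes tested, with a red line at GBP6. GBP6, at 1.20, lies in the upper tail, with 21 genes above it.

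The share of the most abundant gene also differed between the days. This gene took 71.7%, 69.8%, 65.9%, 66.5% and 66.0% of the summed linear values in the Day 1 libraries of fetuses 1 to 5, and 66.8%, 66.8%, 63.8%, 59.1% and 64.1% on Day 5, so its share was lower on Day 5 in every fetus. Across fetuses the order was not that of GBP6, since the share was lower by 4.85, 2.98, 2.09, 7.39 and 1.89 percentage points for fetuses 1 to 5. With this share as a covariate, an alternative chosen after the data were seen, the GBP6 difference was 0.77 with a standard error of 0.36. The part of this share in the GBP6 difference was not tested.

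In the authors' comparison table, GBP6 and IFI6 were both higher on Day 5. GBP6 lies on the minus strand of chromosome 1 of ARS-UI_Ramb_v2.0, from 66629253 to 66651680, a span of 22427 bases. The authors' mean for GBP6 was 138 on Day 1 and 510 on Day 5, a ratio of 3.70, and its total over the libraries was 3240. IFI6 lies on the plus strand of chromosome 2, from 239392016 to 239401162, a span of 9146 bases. The authors' mean for IFI6 was 47.4 on Day 1 and 239 on Day 5, a ratio of 5.04, with a total of 1430. These means are linear normalized signals pooled over the libraries of a day and carry no replicate error, so whether the ratios of IFI6 and GBP6 differ beyond the spread between fetuses could not be examined. By this ratio IFI6 ranked 13 and GBP6 ranked 24 among the 59 genes of the table that were higher on Day 5, whose median ratio was 3.44. Spans include introns, so the levels of GBP6 and IFI6 were not ranked against each other. Guanylate-binding proteins resemble each other in sequence, and how the counting treated reads that match several of them is not given in the sources used here.

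The ratio of GBP6 depended on the scale. It was 3.70 from the authors' means and 2.57 from the linear rlog values. In all 18 genes that stand in both tables under an identifier, the log2 ratio of the authors' means was further from 0 than the rlog difference, with the same sign in 18 of 18, and these genes were selected on the authors' contrast. The linear rlog values of GBP6 summed to 2.22 times its total in the table, close to the median of 2.29 over the 18 genes, which ran from 1.60 to 18.9. The normalization behind the pooled means is not given in the sources used here, and the cause of the gap was not tested.

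A list of 44 interferon-stimulated genes was drawn up for this comparison with earlier results of these data known, so its counts are not read as an excess. GBP6 and IFI6 are on it and were taken from the table, so their place and direction there were fixed. Of the other 42 genes, 4 stand in the table, and all 4 had a higher mean on Day 5. The table's 80 genes are 0.261% of the number in the rlog table, and the 59 that were higher on Day 5 are 0.193% of it. Since the table was selected on these libraries, their direction is not independent evidence, and the remaining 38 were not analysed here. ISG15, a ubiquitin-like modifier, had authors' means of 782 on Day 1 and 12700 on Day 5, a ratio of 16.2. After IFI6 came IFIT1, a protein that binds viral RNA, with means of 69.8 and 343 and a ratio of 4.91. GBP6 followed at 3.70. CMPK2, a mitochondrial nucleotide kinase, had means of 98.1 and 352 (ratio 3.59), and DTX3L, a ubiquitin ligase, had means of 99.4 and 339 (ratio 3.41). The median ratio of the 4 other genes was 4.25, beside 3.44 for the 59 higher genes of the table. With GBP6 and IFI6 they lie on 5 chromosomes, and GBP6 and DTX3L share chromosome 1.

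**Figure D3:**
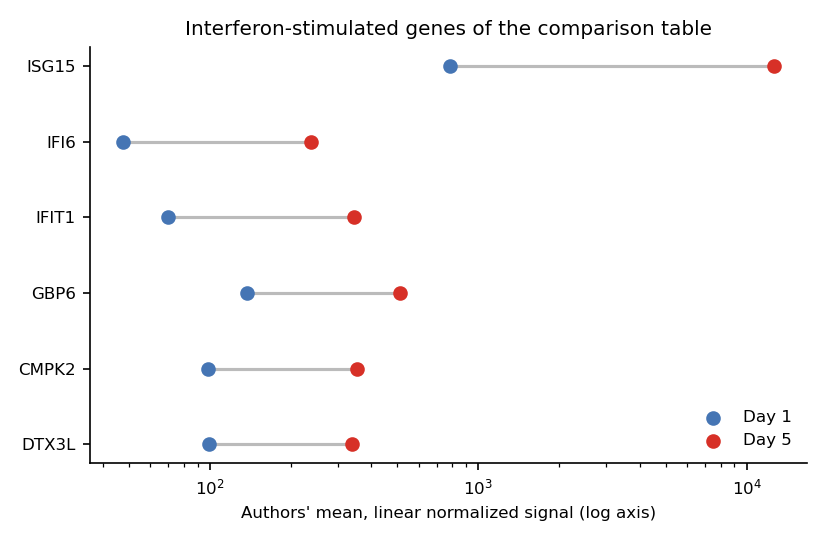
Authors' means of the 6 interferon-stimulated genes of the comparison table on Day 1 (blue) and Day 5 (red), on a log axis of linear normalized signal, in the order of their ratio. The means are pooled and have no error bars. ISG15 has the widest gap (16.2-fold), while the other 5 genes lie between 3.41-fold and 5.04-fold.

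Of 19 genes for interferon ligands, receptors and signalling, from IFNB1 and IFNG through the JAK and STAT genes to TLR4 and TICAM1, 0 stand in the table, and their values were not analysed here. Of 11 NF-kappaB response genes, 5 stand in it, each higher on Day 5, with a median ratio of 2.47, beside 0.261% of genes in the table, 0.193% in it and higher, and a median of 3.44 for the higher genes. These genes too were selected on the same libraries, and the list was chosen with earlier results of these data known. The other 6 genes of the list were not analysed here. ACOD1, which makes itaconate in activated macrophages, had a ratio of 5.29, and GADD45B, a stress-response gene, had 2.78. SOD2, the mitochondrial superoxide dismutase, NFKBIA, the inhibitor of NF-kappaB, and BCL2A1, which opposes apoptosis, had ratios of 2.47, 2.33 and 2.18. IFI6 and GBP6 thus had ratios above those of 4 of the 5 genes, and IFI6 and GBP6 both lay below ACOD1.

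Among the cell type marker lists reported here, which are not all that were drawn up, several differed between the days beside GBP6 and IFI6. For neutrophils, cells that PBMC isolation is meant to remove, 6 of 6 markers stand in the table and were higher on Day 5. For these counts too the background is 0.261% of genes in the table and 0.193% in it and higher, and the table was selected on these libraries. The marker lists were chosen with earlier results of these data known, so the counts are not read as an excess. The authors' means of the 6 neutrophil markers summed to 338 on Day 1 and 2671 on Day 5, with S100A9 having the highest total, not scaled to length. These sums came mainly from the S100 genes, with means of 164 and 1560 (S100A9), 80.7 and 571 (S100A12) and 28.8 and 286 (S100A8). S100A9 is a protein of myeloid cells, monocytes included, so these sums do not tell neutrophils from monocytes. The means were 37.7 and 135 for VNN2, 19.9 and 68.5 for MMP25 and 7.13 and 50.6 for CXCR2. For monocytes and macrophages, 4 of 6 markers (FCGR3A, MS4A7, C1QA and C1QB) stand in the table and were higher, with sums of 116.7 and 808 and the highest total in C1QA. The other 2, CD14 and CSF1R, do not stand in it and were not analysed here. For red cells, 1 of 4 stands in the table, XK, which was lower on Day 5 at 7.93 against 45.8. The other 3 were not analysed here. Of 5 T cell, 3 NK cell and 3 platelet markers, 0 stand in the table, and whether any of these was at 0 was not analysed here. The part of cell composition in the GBP6 and IFI6 differences was not tested.

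The markers with values in every library shared the order of fetuses seen in GBP6 in part. S100A9, a calcium-binding protein of myeloid cells, had within-fetus differences of 1.52, 1.57, 2.86, 2.92 and 2.16 for fetuses 1 to 5, so that fetuses 3 and 4 were highest. CXCR2, a chemokine receptor of neutrophils, had 0.50, 1.09, 1.83, 0.94 and 1.84, with fetuses 3 and 5 highest. FCGR3A, an Fc receptor of monocytes and NK cells, had 0.54, 1.21, 2.07, 0.89 and 0.87, and fetus 3 stood highest. In MS4A7, a membrane protein of macrophages, the differences were 0.62, 0.43, 1.64, 1.75 and 0.52. In IGLL1, an immunoglobulin lambda-like chain of the B lineage, they were 0.35, 0.17, 1.41, 0.56 and 0.67. Fetuses 1 and 2 had the smallest differences in S100A9 and IGLL1, as in GBP6, fetus 1 had the smallest in CXCR2 and FCGR3A, and fetus 2 in MS4A7. Over the 10 libraries, which share 5 fetuses and 2 days, the Pearson correlation with GBP6 was 0.866 for CXCR2, 0.833 for IGLL1, 0.814 for MS4A7, 0.773 for FCGR3A and 0.768 for S100A9, and Spearman's rho was 0.806, 0.903, 0.915, 0.758 and 0.721. Taken as deviations from the day means, the Pearson correlation was 0.684, 0.629, 0.602, 0.466 and 0.393 in the same order. These 5 genes and GBP6 were all listed by the authors as higher on Day 5. Positive correlations over libraries of both days therefore follow in part from that selection.

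**Figure D4:**
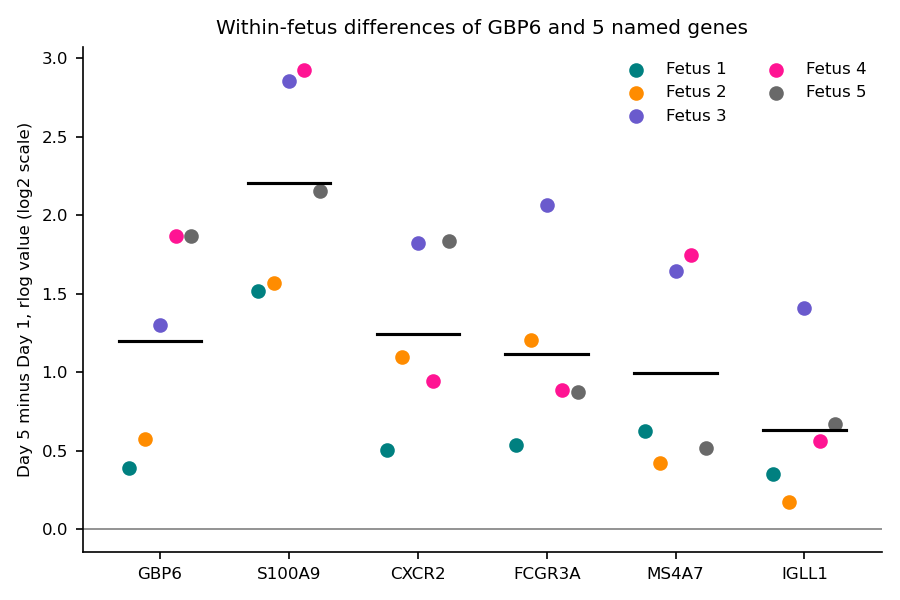
Within-fetus differences in rlog value (Day 5 minus Day 1, log2 scale, y axis) of GBP6 and 5 genes paired with a symbol, with a point for each fetus and a bar for the mean. Every point lies above 0, and GBP6 is the gene in which fetuses 4 and 5 are both highest.

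The genes most like GBP6 across the 10 libraries were 2 without a symbol. Among 10022 other genes at or above the median mean value, 95% had a Pearson correlation with GBP6 between -0.755 and 0.760, with a median of 0.002. ENSOARG00020017840 had the highest, 0.958. Its rlog values were 8.17, 8.44, 8.33, 8.42 and 8.61 on Day 1 and 8.39, 8.70, 8.62, 8.86 and 9.24 on Day 5 for fetuses 1 to 5. As in GBP6, fetus 5 was highest on both days, but the mean difference was smaller, at 0.37. ENSOARG00020014334 followed at 0.953. It went from 9.65, 10.61, 10.31, 11.03 and 12.14 on Day 1 to 12.23, 12.98, 13.13, 14.37 and 15.39 on Day 5, a mean difference of 2.87. Its days did not overlap, and its Day 5 order of fetuses was that of GBP6.

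The lowest correlation was -0.987, for ENSOARG00020013191, whose order over the 10 libraries was the exact reverse of that of GBP6 (Spearman rho -1). Its rlog values were 7.63, 7.58, 7.68, 7.58 and 7.39 on Day 1 and 7.58, 7.26, 7.22, 6.86 and 6.83 on Day 5, lower on Day 5 in each fetus, with a mean difference of -0.42. Next was ENSOARG00020010407 at -0.965, with a mean difference of -0.62. It was lower on Day 5 in fetuses 2 to 5 and at 7.24 and 7.26 in fetus 1, the fetus with the smallest GBP6 difference. As deviations from the day means, the correlations of the 4 genes with GBP6 were 0.935, 0.908, -0.974 and -0.929. The 10 points are not independent, since each fetus gave 2 of them, and the genes were picked as extremes among 10022.

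**Figure D5:**
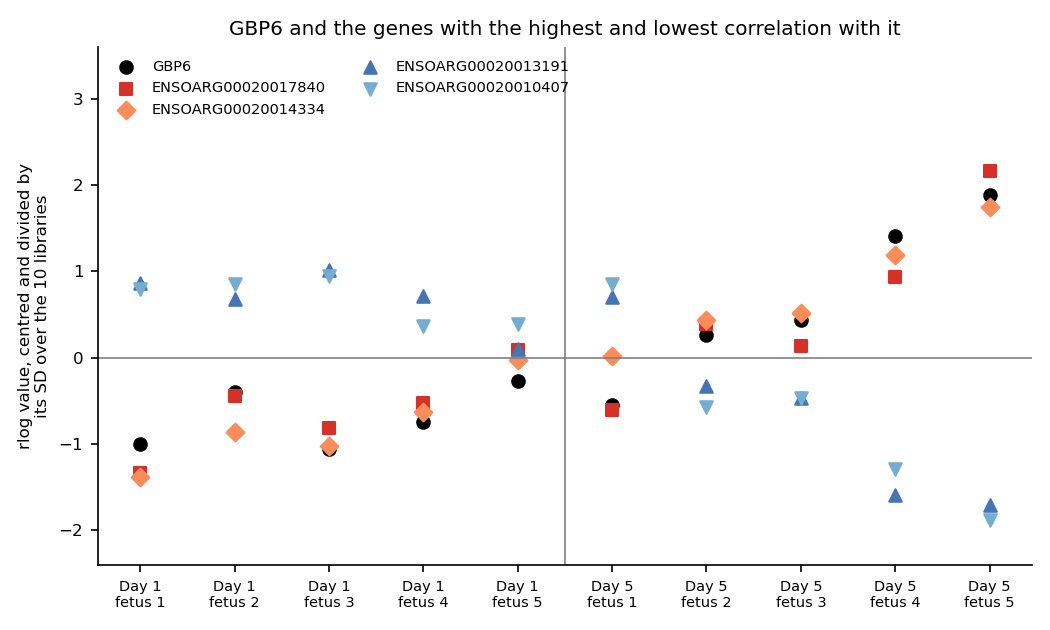
rlog values of GBP6 (black), the 2 genes with the highest correlation with it (red and orange) and the 2 with the lowest (blue shades) in each of the 10 libraries, centred and divided by their SD over the libraries (y axis, in SD). The Day 5 libraries of fetuses 4 and 5 lie furthest from the mean in GBP6 and in the 2 genes with the lowest correlation, and the Day 5 library of fetus 1 lies on the side of 0 where most Day 1 libraries are in these 3 genes.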

How the data were processed

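The authors checked the reads with FastQC 0.11.9, aligned them with STAR 2.7.3a to ARS-UI_Ramb_v2.0 and counted them by gene and strand with featureCounts 2.0.3, and they analysed the counts with DESeq2. The authors deposited rlog values, on a log2 scale, for 30620 genes and no counts, which leaves library depth unknown and allows no counting error. Settings of the rlog transformation are not given in the sources used here. For 80 genes the authors deposited a linear signal, as a mean for each day and a total. Their columns of p-values, adjusted p-values, ratios and fold changes gave no result here, and ratios were computed from the pooled means.

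Genes at 0 in all libraries (10574) were left out, which left 20046. Limma 3.58.1 in R 4.3.3 (lmFit, eBayes with a trend, no term for the fetus) served for the background of calls and the standard error, and was tested on simulated data. Descriptions used Python 3.11.15 with numpy 2.4.6 and pandas 2.3.3. Libraries were grouped by day and paired by fetus from the sample labels. Deviations from the day means correlated at 0.174 to 0.481 within a fetus and at -0.264 to 0.136 between fetuses.

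The symbols of GBP6, CXCR2, FCGR3A, IGLL1, MS4A7 and S100A9 come from the study, where their fold changes and p-values pair them with identifiers of the comparison table, the single use of those values. Through a RefSeq gene table (ARS-UI_Ramb_v3.0), which lists no Ensembl identifiers, 0 genes could be matched. Genes named are GBP6, IFI6, the genes of the lists that stand in the comparison table, these 5 other symbols, and the 2 genes with the highest and the 2 with the lowest correlation with GBP6 among genes at or above the median mean value. Members and lists were chosen with earlier results of these data known. Alternatives were the replicate block, quantile normalization, median centring, removal of the lowest 25% of genes, no trend, other measures of likeness and difference, and leaving out each fetus. Sequences of promoters and proteins were not used here. The result of a further list of cell type markers is not reported here.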

Additional observations from a re-analysis of the deposited data

Results flagged for a closer look

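In 21 groups of 5 values (GBP6, the 5 other genes with symbols and the 4 genes without one on each day, and the within-fetus differences of GBP6), 0 had a library whose gap to its nearest neighbour was large for the range of the group, where chance gives about 1.05.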

How the results depend on the processing

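The GBP6 difference of 1.20 was 1.17 after quantile normalization, 1.22 after median centring, 1.36 from linear means, 1.30 as a median and 1.03 to 1.40 with each fetus left out. A covariate for the most abundant gene's share, chosen after seeing the data, gave 0.77, a shift larger than the standard error. The cause was not tested. The limma standard error of 0.33 was 0.22 with the replicate block, 0.40 from the gene alone and 0.31 to 0.41 with each fetus left out.

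The number of genes passing limma, 4 at first (4 higher, 0 lower), was 27 with the replicate block (22 higher, 5 lower), 19 after median centring (16 higher, 3 lower), 17 without the lowest 25% of genes (14 higher, 3 lower) and 1 after quantile normalization. It was 0 without a trend and 0 to 6 with each fetus left out. Without a trend, limma gave 1302 of 20046 genes at an unadjusted p under 0.05, where chance gives a share of 0.05. Chosen after seeing the data, the covariate gave 1 gene passing (0 higher, 1 lower), which was not among the first 4. The block without the lowest genes, also chosen after seeing the data, gave 140 (86 higher, 54 lower). It was the only setting with GBP6 among the genes passing, and nothing is read from this, as GBP6 was selected on this contrast. The cause was not tested.

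Genes higher on Day 5 in every fetus numbered 707, 1092 after quantile normalization, 1459 with each library centred and 701 without the lowest 25%, with GBP6 in each count. Of the 4 genes named for their correlation with GBP6, 4 kept their place among all genes tested, 1 by Spearman and 1 as deviations from the day means, ENSOARG00020013191 in both cases. The cause was not tested. Motif searches were not run, as no promoter sequences were used, and the IFI6 ratio has no alternative. The unknown depth and the 5 fetuses limit the precision.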

Other observations

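ISG15, the interferon-stimulated gene with the highest ratio in the comparison table, lies 8733 bases from HES4 on chromosome 12 of ARS-UI_Ramb_v2.0, on the opposite strand. HES4, a transcriptional repressor of the hairy and enhancer of split family, also had a higher authors' mean on Day 5 (130) than on Day 1 (37.4), a ratio of 3.48, close to those of GBP6 and DTX3L. HES4 was chosen after its values were seen.

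IFI6 and GBP6 had no such close neighbour in the table. The table gene nearest to IFI6 was C1QB, at 4.50 Mb, followed by C1QA, which had the highest ratio of the table (22.6). The nearest to GBP6 was S100A9, at 37.1 Mb. In the RefSeq annotation of ARS-UI_Ramb_v3.0, the protein-coding genes on either side of IFI6 are FAM76A and FGR.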
